A study of Mus musculus with 24 samples.

Results

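Cxcl13 and Cxcr5 are a chemokine and its receptor, and they were followed across 4 mouse strains given CBE or PBS. The members were chosen by gene symbol in the platform annotation, taking the probe set of highest mean where a symbol had several. Both were found, 2 of 22180 genes, each with 1 probe set (17439367 for Cxcl13 and 17526310 for Cxcr5). The pair was proposed because Cxcl13 differed between CBE and PBS in earlier results of these arrays. Its values are therefore given as a description with no test, and tests are given for Cxcr5 and for other genes of the pathway.

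The series holds 24 arrays of cortex from male mice aged 18 days, in 8 groups of 3. The titles give strain, agent and a number, and each array was taken to be 1 mouse. CBE (conduritol B-epoxide) inhibits the lysosomal enzyme that breaks down glucosylceramide, and its use models neuronopathic Gaucher disease chemically, without a mutant allele. SV129, FVB, C57BL/6JOlaHsd (here C57) and C3H mice were injected intraperitoneally from day 8 to day 18, either with CBE at 25 mg per kg per day or with PBS. The tissue was the slice of a 1 mm coronal series that held the cortex, so layers, vessels and neighbouring tissue were measured together. Fewer cells of a type and less RNA per cell cannot be told apart in such samples. Values are log2 signal per probe set, array medians lay between 4.14 and 4.22, and replicate arrays of a group correlated at 0.989 to 0.993 over all probe sets. The markers of cortex fixed for the label check were high for neurons (Snap25 13.14 to 13.42, Slc17a7 11.03 to 11.43) and astrocytes (Aqp4 8.84 to 9.98). The interneuron enzyme Gad1 was low, at 4.49 to 5.16. Of the oligodendrocyte markers, Mbp lay between 7.97 and 8.94, and Mog between 6.56 and 9.04, the widest range of the check. In the marker lists for microglia, C3H CBE array 1 stood above the other arrays of its group.

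CXCL13 is a secreted CXC chemokine that draws B cells and follicular helper T cells into the follicles of lymph nodes and spleen. It is made there by stromal cells and follicular dendritic cells, under the control of lymphotoxin and tumour necrosis factor acting through NF-kB, and in inflamed brain by microglia and macrophages. CXCR5 is its receptor, a G protein-coupled receptor carried mainly by B cells and follicular helper T cells. Binding activates Gi proteins and the small GTPases that move the cell.

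The sequence before the start of Cxcl13 is printed because Cxcl13 carries the values that follow. In RefSeq's mouse assembly GRCm38.p6 the 250 bases before the start lie on the plus strand at chr5:95956689-95956938, and the capitals mark the only TATAAA, whose first base is 46 bases before the start.

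Cxcl13: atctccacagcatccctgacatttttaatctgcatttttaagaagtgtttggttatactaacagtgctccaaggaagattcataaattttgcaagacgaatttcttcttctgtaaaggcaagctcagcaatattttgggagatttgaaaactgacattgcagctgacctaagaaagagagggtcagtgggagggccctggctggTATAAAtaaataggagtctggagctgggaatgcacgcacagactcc

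Of 32851 promoter windows of this length, 7.59% held TATAAA on the same strand. The window held no interferon-stimulated response element (GAAA and a second GAAA after a gap of any 2 bases, either strand, in 2.98% of windows), no gamma-activated site (TTCNNNGAA, either strand, in 7.02%), no AP-1 site (TGANTCA, either strand, in 6.75%) and no NF-kB site by its consensus (in 7.25%). These letters are absent from this window only. No entry for Cxcr5 was used. The array files name no genome build, so no other position is given.

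Cxcl13 was higher with CBE in each of the 4 strains, by very different amounts. The mean was 20.7-fold higher in FVB, 2.9-fold in SV129, 2.0-fold in C57 and 1.57-fold in C3H. All 12 CBE arrays lay above the PBS mean of their strain, and 11 lay above every PBS array of their strain. These differences are those by which the gene was chosen.

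In FVB, Cxcl13 read 8.51, 9.49 and 8.61 on the CBE arrays, against 4.55, 4.35 and 4.59 on the PBS arrays. The means were 8.87 ± 0.54 with CBE and 4.50 ± 0.13 with PBS (SD, n = 3 each), a difference of 4.37 with a standard error of 0.36. This error is that of the limma fit, which pools the spread over all 8 groups, so it is the same in every strain. It does not follow the SDs of single groups, which ran from 0.06 (C3H with PBS) to 0.92 (SV129 with PBS). The lowest CBE array stood 3.93 above the highest PBS array. Cxcl13 had the highest rise of all 22180 genes in this strain.

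In SV129 the CBE arrays read 7.29, 6.48 and 7.67, against 6.67, 5.12 and 5.03 on the PBS arrays. The means were 7.15 ± 0.61 with CBE and 5.61 ± 0.92 with PBS, a difference of 1.54, which ranked 2 among the rises of that strain. Its standard error of 0.36 is the pooled one, and both SDs here were larger than those of the same agent in the other strains. Here the groups overlapped, because PBS array 1 lay 1.59 above the mean of PBS arrays 2 and 3 and above CBE array 2. Without PBS array 1 the difference was 2.07 and the groups did not overlap. The microglia marker score read 6.10, 5.83 and 5.94 on PBS arrays 1 to 3. On CBE arrays 1 to 3 it read 5.95, 6.09 and 5.93. PBS array 1 thus had the highest score of the strain, above all CBE arrays. Among the CBE arrays, array 2 had the highest score and the lowest Cxcl13. The part of this score in the Cxcl13 values was not tested.

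In C57 the CBE arrays read 5.46, 5.87 and 6.39, against 4.69, 4.96 and 5.06 on the PBS arrays. The means were 5.91 ± 0.47 with CBE and 4.90 ± 0.19 with PBS, a difference of 1.00 with a standard error of 0.36. All 3 CBE arrays lay above all 3 PBS arrays, with a gap of 0.40. The difference ranked 60 among the rises of the strain.

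In C3H the CBE arrays read 6.03, 5.37 and 5.14, against 4.93, 4.84 and 4.81 on the PBS arrays. The means were 5.51 ± 0.46 with CBE and 4.86 ± 0.06 with PBS, a difference of 0.65 with a standard error of 0.36, which ranked 85. The groups did not overlap, with a gap of 0.21. CBE array 1, the highest of the 3, carried much of it, and without that array the difference was 0.39.

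A gap of this kind is common. All 3 CBE arrays lay above all 3 PBS arrays for 5.09% of genes in FVB and 6.52% in SV129, and for 5.82% in C57 and 4.50% in C3H. The plot of both members by array shows the size of the FVB gap beside the others.

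**Figure D1:**
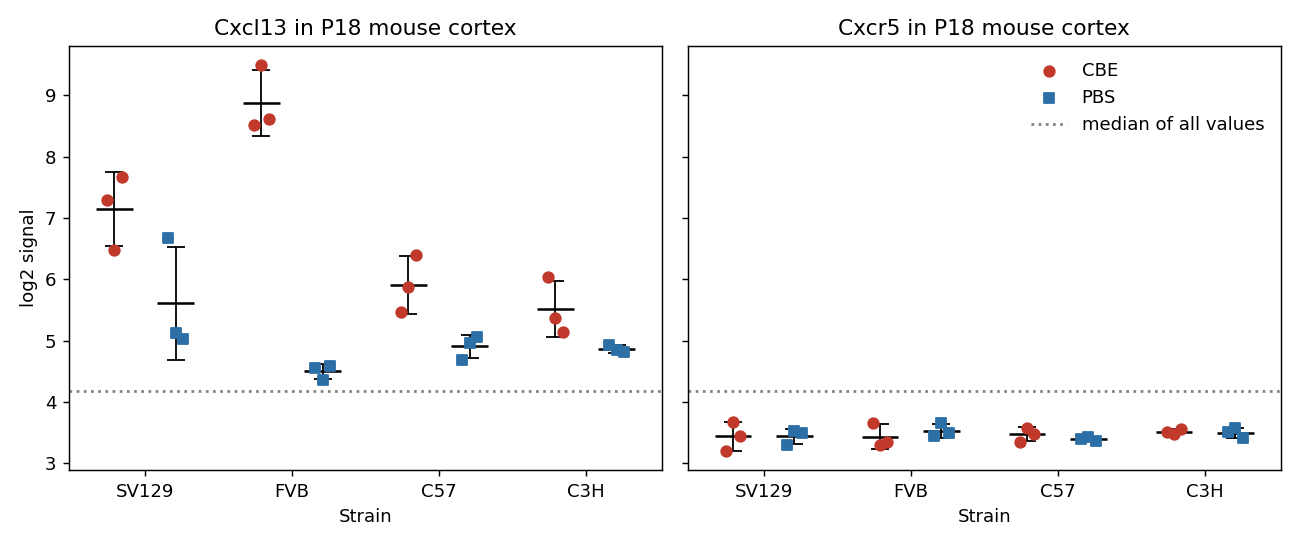
Log2 signal (vertical axis) of Cxcl13 (left) and Cxcr5 (right) on each of 24 arrays by strain, CBE as red circles left of PBS as blue squares. Black lines are group means, bars are SD of 3 arrays and the dotted line is the median of all values, 4.18. Cxcl13 reached 8.51 to 9.49 on the FVB CBE arrays, against 4.35 to 4.59 on the FVB PBS arrays, while Cxcr5 stayed between 3.20 and 3.68 on all arrays.

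The order of the strains differed between the agents. With CBE, Cxcl13 was highest in FVB (8.87), then SV129 (7.15), C57 (5.91) and C3H (5.51). The lowest FVB array, 8.51, lay above the highest SV129 array, 7.67, whereas the lowest SV129 array, 6.48, cleared the highest C57 array, 6.39, by less than 1 SD. The C57 and C3H arrays overlapped. With PBS the order was SV129 (5.61), C57 (4.90), C3H (4.86) and FVB (4.50). PBS array 1, at 6.67, raised the SV129 mean, whereas SV129 PBS arrays 2 and 3 read 5.12 and 5.03. The SV129, C57 and C3H arrays overlapped with their neighbours in that order, and all 3 FVB arrays lay below the C3H arrays, whose lowest was 4.81. FVB thus had the lowest PBS mean and the highest CBE mean. Between FVB and C3H the CBE means differed by 10.3-fold, and between FVB and C57 by 7.81-fold.

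The change in FVB exceeded that in SV129 by 2.84, that in C57 by 3.37 and that in C3H by 3.72 on the log2 scale. Each had a standard error of 0.51, which rests on the same spread pooled over all groups. The change in SV129 exceeded those in C57 and C3H by 0.54 and 0.89, and that in C57 exceeded that in C3H by 0.35, with the same standard error.

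Cxcr5, the receptor, was dim on every array and did not pass the test in any strain. In FVB it read 3.66, 3.29 and 3.35 with CBE, against 3.44, 3.65 and 3.49 with PBS. In SV129 it read 3.20, 3.68 and 3.44 with CBE, against 3.30, 3.52 and 3.5 with PBS. In both strains the groups overlapped.

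Cxcr5 read 3.35, 3.58 and 3.48 with CBE in C57, against 3.39, 3.43 and 3.37 with PBS. In C3H it read 3.51, 3.47 and 3.55 with CBE, against 3.51, 3.57 and 3.41 with PBS. These groups overlapped as well, and the 24 values lay below the median of all values. The limma estimates were 0.01 in SV129 (adjusted p = 0.99), -0.09 in FVB (adjusted p = 0.96), 0.07 in C57 and 0.01 in C3H (adjusted p = 1.0 for both). The 95% interval of the change ran from -0.31 to 0.13 in FVB, where the Cxcl13 difference was largest, and from -0.11 to 0.11 for the mean of the 4 strains. The change of Cxcr5 did not pass the test of a difference between strains (F-test of equal changes, adjusted p = 0.97), and its PBS level did not pass the F-test between strains (adjusted p = 0.81).

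The genes around the pair were then counted by list. The lists covered the CXC family, lymphoid guidance cues, genes of lymphotoxin, TNF and noncanonical NF-kB, and signalling below the receptor. Others covered the cells that could make or receive the chemokine. Of 152 listed genes 138 were measured. In the mean of 4 strains 8 rose and 0 fell, against a background of 0.609% of all genes higher and 0.117% lower. The median change of the 138 was 0.03, beside -0.01 over all genes. The 8 were Cxcl9, Cxcl10, Cxcl11, Cxcl16, Rac2, Csf1r, Cd68 and C1qa. The count was 13 without C3H CBE array 3, which added Itgam, Itgax, Rgs1, Trem2 and Tyrobp, and 12 without C3H CBE array 1, which added Itgax, Rgs1, Trem2 and Tyrobp. It was 6 in an ordinary linear model, which lost Cd68, Csf1r and Cxcl9 and added Clu, and 7 without any of several single arrays. A filter on dim probe sets gave 10 and quantile normalization 11.

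Within single strains 4 of the 138 rose in FVB (Cxcl9, Cxcl10, Cxcl11 and Cxcl16; 0.135% of all genes changed) and 2 in C57 (Cxcl10 and Cxcl16; 0.325%). The FVB call of Cxcl16 was lost in an ordinary linear model and when any of FVB CBE arrays 1, 2 and 3 or FVB PBS arrays 1 and 2 was left out, which left 3. In SV129 and C3H 0 of them passed in limma or in an ordinary linear model, where limma called 0.113% and 0.0361% of all genes. At an unadjusted p under 0.05 there were 13 of the 138 in SV129, beside 13% of all genes, and 29 in C3H, beside 5.02% of all genes. Without C3H CBE array 1 9 list genes passed in FVB, 9 in C57 and 1, Cd68, in C3H. Without C3H CBE array 3 the count was 5 in C3H, without C3H CBE array 2 it was 1 (Cd68), and without SV129 PBS array 1 it was 1 in SV129, where Rel fell. With 3 arrays a side the smallest p of an exact permutation test is 0.1, and the calls use a spread pooled over all groups.

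The F-test of equal changes called 2 genes (0.00902%). That count is over all genes tested. No result of this test is given for Cxcl13, which had been chosen for this pattern. With all arrays 0 of the 138 list genes passed in limma or an ordinary linear model, and the smallest value was that of Cxcl10 (adjusted p = 0.079), which passed with arrays centred on their medians (0.042). At an unadjusted p under 0.05 there were 17 of the 138, beside 6.57% of all genes. Without C3H CBE array 1, Cxcl10 (0.0041) and Cxcl11 (1.5e-05) passed. Cxcl10 also passed without C57 CBE array 1 (0.0090), and Cxcl11 without C3H CBE array 3 (0.017).

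**Figure D2:**
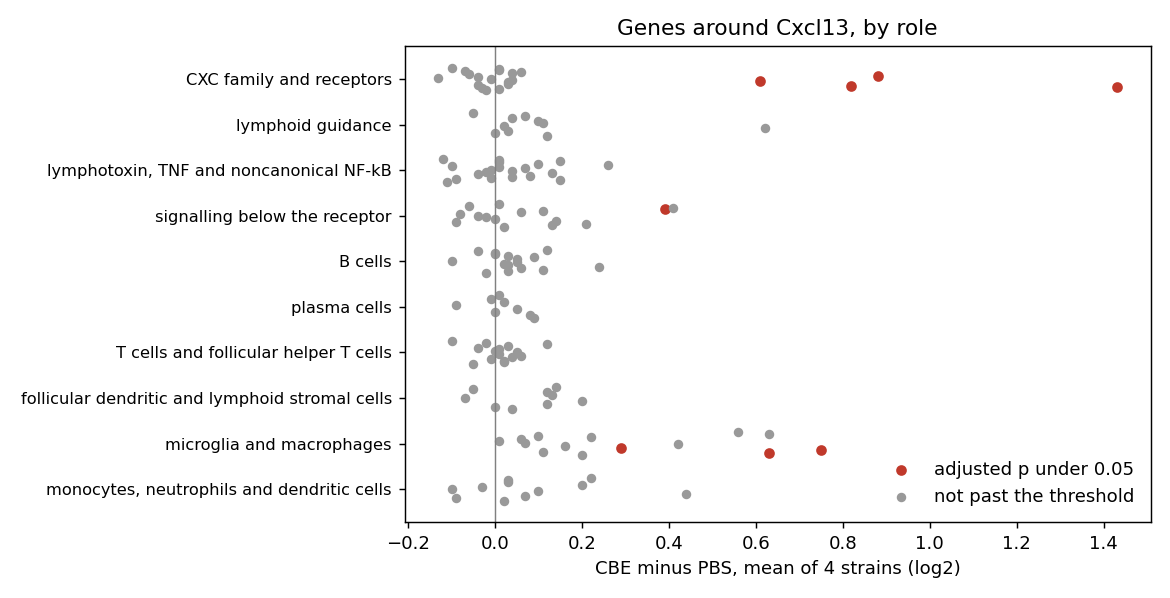
Change with CBE in the mean of 4 strains (horizontal axis, log2 CBE minus PBS) of each measured list gene, 1 point per gene, with the lists down the page. Red points passed the threshold of 0.05 after adjustment over all 22180 genes. The 4 red points of the CXC family lie between 0.61 and 1.43, and the B cell, plasma cell and T cell lists hold no red point.

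In the CXC family, 4 of 21 measured ligand and receptor genes rose (0.609% of all genes), all of them ligands, and the other 17 did not pass. At an unadjusted p under 0.05 there were 6 of the 21, where 10.7% of all genes had such a p. Cxcl9, Cxcl10 and Cxcl11, which attract activated T cells through the receptor CXCR3, lie on the same chromosome as Cxcl13, and Cxcl11 is annotated as a transcribed pseudogene in the C57BL/6J assembly. In FVB their changes were 2.26 ± 0.36, 1.52 ± 0.22 and 1.78 ± 0.20 (SE), with limma adjusted p of 0.0038, 0.0016 and 8e-05, against 4.37 for Cxcl13. Values after ± from here on are standard errors of the limma fit unless named SD. In SV129 they were 0.10, 0.77 and 0.21, and none passed there, whereas the Cxcl13 mean was 1.54 higher with CBE. In C57 Cxcl10 stood above Cxcl13, at 2.62 against 1.00, whereas Cxcl9 and Cxcl11 stood below it, at 0.68 and 0.39. In an ordinary linear model Cxcl9 missed the threshold for the mean of 4 strains (adjusted p = 0.079).

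The arrays that were high for one chemokine were not always high for another. In FVB, Cxcl9 read 7.33, 5.25 and 4.85 with CBE, against 3.40, 3.62 and 3.64 with PBS. Its highest array was CBE array 1, which was the lowest of the 3 for Cxcl13. Cxcl10 in C57 read 5.95, 6.39 and 7.15 with CBE, against 3.83, 3.73 and 4.06 with PBS, and its 3 CBE arrays were in the same order as for Cxcl13.

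Cxcl16, a membrane-bound chemokine that also acts as a scavenger receptor, rose by 0.61 in the mean of 4 strains. In FVB its difference was 0.80 (adjusted p = 0.027), the call that was lost without most single FVB arrays. Cxcl12, the homeostatic chemokine of bone marrow and follicles, averaged 7.17 with CBE and 7.31 with PBS in FVB, and its mean change over strains was -0.04 ± 0.11 (adjusted p = 0.94). Cxcr4, the receptor of Cxcl12, had a difference of -0.07 ± 0.07 (adjusted p = 0.80). The plot of CXC changes by strain sets these values beside Cxcl13.

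**Figure D3:**
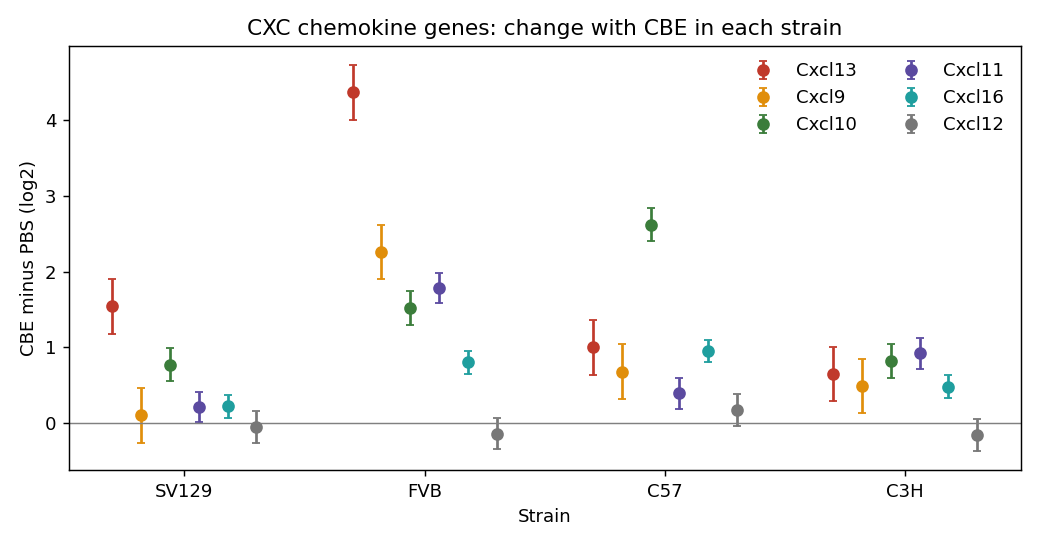
Change with CBE (vertical axis, log2 CBE minus PBS) of Cxcl13 and 5 other CXC chemokine genes in each strain (horizontal axis). Points are differences of group means of 3 arrays and bars are the standard error of the limma fit. Cxcl13 stands at 4.37 in FVB, above Cxcl9 at 2.26, whereas in C57 Cxcl10 stands at 2.62, above Cxcl13 at 1.00.

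Of 10 measured lymphoid guidance genes 0 passed in the mean of 4 strains by limma or an ordinary linear model. At an unadjusted p under 0.05 there were 2, where 10.7% of all genes had such a p. Ccl19 and the Ccl21 genes, the T zone chemokines, were left out because their probe sets carry several symbols. Ch25h makes the oxysterol precursor of the ligand for GPR183, a receptor that places B cells at the edge of the follicle. Ch25h read 5.22, 5.66 and 5.51 with CBE in FVB, against 4.48, 4.19 and 4.59 with PBS, and these groups did not overlap. In C3H it read 7.13, 4.17 and 4.66 with CBE, against 4.49, 4.83 and 4.40 with PBS, so 1 array stood far above the others. Its mean change was 0.62 ± 0.22 (adjusted p = 0.27), and without C3H CBE array 1 its FVB change passed. Gpr183 had a difference of 0.11 ± 0.05 (adjusted p = 0.45), Cyp7b1, which makes the next step of that ligand, one of 0.02 ± 0.05 (adjusted p = 0.94), and Ccr7, the receptor for the T zone chemokines, one of 0.03 ± 0.07 (adjusted p = 0.94).

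Lymphotoxin, TNF and noncanonical NF-kB genes, from pathways that control Cxcl13 in lymphoid organs, showed 0 calls among 20 measured genes in both models. Not every gene of this list is itself an inducer. The median difference was 0.01, and 4 genes had an unadjusted p under 0.05 (10.7% of all genes). Lymphotoxin alpha (Lta) had a difference of -0.01 ± 0.05, lymphotoxin beta (Ltb) one of 0.04 ± 0.05 and their receptor Ltbr one of 0.08 ± 0.07 (adjusted p of 0.96, 0.87 and 0.75). Tnf had a difference of 0.07 ± 0.05 (adjusted p = 0.72) and the B cell survival factor Tnfsf13b one of 0.15 ± 0.07 (adjusted p = 0.41). The receptor Tnfrsf1a had a difference of 0.26 ± 0.08 (adjusted p = 0.16).

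Nfkb2, the precursor of the noncanonical NF-kB subunit p52, had a difference of 0.13 ± 0.04 in the mean of 4 strains (adjusted p = 0.15). Its strain values were 0.17 in FVB and 0.33 in C57 (adjusted p = 0.77 and 0.078), and it passed in C57 without C3H CBE array 1. Its partner Relb had a difference of -0.01 ± 0.04 and the kinase Map3k14, which starts that pathway, one of -0.04 ± 0.03 (adjusted p of 0.98 and 0.70). Lta, Ltb, Tnf, Nfkb2 and Map3k14 were dim, with group means below the median of all values in FVB.

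Below the receptor, 1 of 15 measured genes rose (0.609% of all genes), and 5 had an unadjusted p under 0.05 (10.7% of all genes). Rac2, a GTPase of blood cells that drives their movement, rose by 0.39 ± 0.08 in the mean of 4 strains (adjusted p = 0.0095). It was above its strain's PBS mean on 12 of 12 CBE arrays. That count comes from the values that gave the call, and its share over all genes was not computed. In FVB Rac2 read 5.02, 5.09 and 4.86 with CBE, against 4.73, 4.99 and 4.74 with PBS, and these groups overlapped. In C57 it read 5.07, 5.23 and 5.48 with CBE, against 4.51, 4.80 and 4.78 with PBS, without overlap.

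Markers of the cells that carry the receptor did not pass. Of 16 B cell genes 0 passed in the mean of 4 strains in limma or an ordinary linear model, and 2 had an unadjusted p under 0.05, near the 10.7% of all genes. The median difference was 0.03 for the mean and 0.02 in FVB. Ms4a1 (CD20) had a difference of 0.03 ± 0.03, and the antigen receptor chains Cd79a and Cd79b had 0.03 ± 0.04 and 0.02 ± 0.04 (adjusted p of 0.85, 0.83 and 0.93). The smallest B cell p-values were those of Vpreb3 and Cd37 (adjusted p of 0.19 and 0.20). On single arrays Ms4a1 lay between 3.5 and 3.77, Cd79a between 3.34 and 3.66 and Cd79b between 3.15 and 3.43, all below the median of all values.

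The mean of the 16 B cell markers, used as a score, lay between 3.79 and 3.94 on CBE arrays and between 3.77 and 3.87 on PBS arrays. In FVB the mean was 3.84 with CBE and 3.84 with PBS. In SV129 the CBE arrays all read 3.88, against 3.84, 3.77 and 3.84 on the PBS arrays, and in C57 they read 3.88 to 3.89, against 3.79 to 3.86, so the groups did not overlap in those strains. Of 8 plasma cell genes and 15 T cell genes 0 passed in both models, and 0 and 1 had an unadjusted p under 0.05 (10.7% of all genes). The smallest values were those of Derl3 and Prdm1 (adjusted p of 0.49 and 0.58) and of Tox2 and Pdcd1 (0.45 and 0.47). The T cell score in FVB read 3.96, 4.03 and 4.02 with CBE, against 3.92 on all 3 PBS arrays, so these groups did not overlap either, and its part in the Cxcl13 values was not tested. Of single genes, 6.52% in SV129, 5.82% in C57 and 5.09% in FVB separated in this direction. No such share was computed for scores.

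Of 9 genes of follicular dendritic and lymphoid stromal cells 0 passed in limma, 1 (Clu) in an ordinary linear model, and 4 had an unadjusted p under 0.05 (10.7% of all genes). Clu, which astrocytes also express, had a difference of 0.12 ± 0.03 (adjusted p = 0.11) and passed without SV129 PBS array 1 (0.031). The adhesion molecule Icam1 had a difference of 0.20 ± 0.06 (adjusted p = 0.15) and passed without SV129 PBS array 2 (0.040). In FVB Icam1 had a difference of 0.54 ± 0.12 (adjusted p = 0.071). It passed there without C3H CBE array 1 or SV129 PBS array 2, with quantile normalization and with the replicate block.

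Of 14 measured markers of microglia and macrophages, which can make CXCL13, 3 rose, where 0.609% of all genes were higher. All 14 had a positive difference, with a median of 0.21, beside -0.008 over all genes. At an unadjusted p under 0.05 there were 10 of the 14, where 10.7% of all genes had such a p. Cd68, a lysosomal protein of phagocytes, rose by 0.75 ± 0.15 (adjusted p = 0.014), C1qa, which starts the complement cascade, by 0.63 ± 0.11 (adjusted p = 0.0029) and Csf1r, the growth factor receptor of microglia, by 0.29 ± 0.06 (adjusted p = 0.033). Cd68 missed the threshold in an ordinary linear model (0.076). Csf1r missed it when any of 12 arrays was left out (adjusted p up to 0.079). These arrays were SV129 CBE 1 and 2, SV129 PBS 2, FVB CBE 1 and 2, FVB PBS 1 and 3, C57 CBE 2 and 3, C57 PBS 1 and 2 and C3H PBS 1.

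The strain order of the microglial markers was not that of Cxcl13. The score of the 14 markers averaged 5.99 with CBE and 5.96 with PBS in SV129, where Cxcl13 ranked 2 among the rises. It averaged 6.40 with CBE and 6.02 with PBS in FVB, 6.55 with CBE and 6.21 with PBS in C57, and 6.59 with CBE and 6.13 with PBS in C3H, where the Cxcl13 difference was smallest. In C3H the CBE arrays read 7.12, 6.28 and 6.36, so array 1 raised the mean, as it did for Cxcl13. The lowest CBE score lay above the highest PBS score in FVB (6.32 and 6.03), C57 (6.46 and 6.37) and C3H (6.28 and 6.21). In SV129 the groups overlapped. Of single genes, 5.09% in FVB, 5.82% in C57 and 4.50% in C3H separated in this direction. Whether microglia contributed to the Cxcl13 values was not tested.

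Among blood phagocytes and dendritic cells 0 of 11 markers passed in both models, and 3 had an unadjusted p under 0.05 (10.7% of all genes). Itgax, an integrin of dendritic cells and activated microglia, had a difference of 0.44 ± 0.11 (adjusted p = 0.054), and it passed when 1 of 5 arrays was left out: C3H CBE 1 (0.0065), C3H CBE 2 (0.043), C3H CBE 3 (0.0029), C57 CBE 1 (0.047) or FVB CBE 2 (0.033). Plac8 had a difference of 0.20 ± 0.05 (adjusted p = 0.089) and passed without C57 CBE 1 (0.030), FVB PBS 2 (0.040) or SV129 CBE 1 (0.032).

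**Figure D4:**
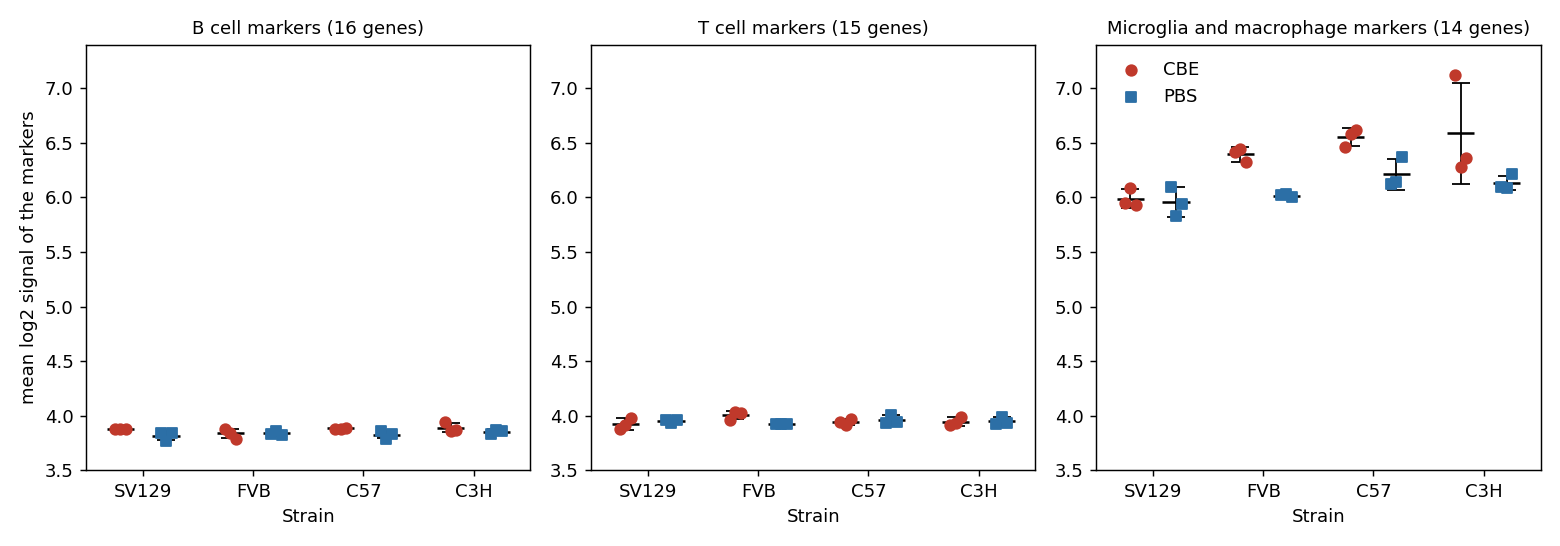
Mean log2 signal (vertical axis) of the measured markers of B cells, T cells and microglia with macrophages on each array, by strain, CBE as red circles left of PBS as blue squares, with group means and SD of 3 arrays. The B cell score stays between 3.77 and 3.94 on all arrays, and the microglia score reaches 7.12 on C3H CBE array 1.

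Among PBS mice, 13 of the 138 list genes passed the F-test of equal PBS means, beside 13.0% of all genes. They included Ackr1, a chemokine-binding receptor of red cells and vessels, Cyp7b1 (adjusted p = 0.0076), Cd68 (adjusted p = 0.023) and Clu (adjusted p = 0.023). Cxcl12, Cxcl9, Cxcl10, Cxcl11, Ltbr and Cxcr5 were not among them.

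Genes with a pattern like that of Cxcl13 were sought by Pearson correlation over the 12 CBE arrays, each value taken minus the PBS mean of its own strain. The points share strain means and 1 chip type, so r is a description. Leaving out predicted genes, clones, small RNAs and olfactory, vomeronasal and antigen receptor genes, the 8 highest were Clec4e (0.907), Aym1 (0.898), Crb3 (0.893), Nupr1l (0.879), Aldh1a1 (0.877), Qrfprl (0.876), H2ac1 (0.871) and C2cd3 (0.870). Their differences in FVB ran from 0.05 for Clec4e to 0.56 for Aldh1a1, and none passed in any strain. Clec4e was slightly lower with CBE in SV129 (-0.07), C57 (-0.06) and C3H (-0.08). Clec4e, Aym1, Crb3, Qrfprl and H2ac1 were dim, with mean levels between 3.38 and 3.80, below the median of all values. Aldh1a1, which oxidises retinal to retinoic acid, averaged 8.16 with CBE and 7.61 with PBS in FVB (adjusted p = 0.19). Its PBS level differed between strains (adjusted p = 1.4e-08).

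Without FVB the correlation was lower for all 8 genes. Over the 9 CBE arrays of the other strains r was between -0.05 for Crb3 and 0.80 for C2cd3. Over the 24 deviations from the own group mean it was between -0.30 for Qrfprl and 0.53 for Clec4e. By the first measure Cxcl11 had r of 0.741, Cxcl9 0.692, Cxcl10 0.11 and the microglial C1qa 0.341, and without FVB those of Cxcl11 and Cxcl9 were -0.06 and -0.21. Cxcr5 had r of -0.445.

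The genes next to Cxcl13 on the chromosome did not pass the test. In the gene order of GRCm38.p6, the 3 measured protein-coding genes before it were Pramel35, Pramel47 and Gm3286, of which the Pramel genes belong to a family of near copies, so their signal is uncertain. Those after it were Cnot6l, a subunit of the complex that shortens poly(A) tails, Mrpl1, a protein of the mitochondrial ribosome, and Fras1, an extracellular matrix protein. In FVB the 6 differences lay between -0.20 for Fras1 and 0.07 for Cnot6l, and none passed in any strain. Cnot6l averaged 8.97 with CBE and 8.90 with PBS in FVB, and Mrpl1 averaged 6.09 with CBE and 6.22 with PBS.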

How the data were processed

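The authors deposited log2 values of 41034 probe sets on 24 arrays. Partek and RMA are named per the submitters' processing notes, and no version, order of steps or build is given there. The log base was inferred: the highest deposited log2 value, 14.09, is 17442 as a power of 2, within a 16-bit scanner's range, and 1316253 as a power of e. Symbols came from the platform annotation: 23521 probe sets had 1 symbol, 1814 several and 15699 none, which left 22180 genes at the highest-mean probe set. No dim filter was applied.

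limma 3.58.1 in R 4.3.3 fitted 8 group means to all 24 arrays (16 residual and 5.10 prior degrees of freedom), with two-sided tests and Benjamini-Hochberg adjustment over the 22180 genes at 0.05. Precision is limited by the number of arrays: the median standard error of a strain's change was 0.10. The fit was tested on simulated data. Nothing says that replicates were handled separately after sampling, so p-values measure the spread between arrays.

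Members, lists and tests were chosen with earlier results of these data known. Named were both members, fixed relatives, up to 4 called genes per list or the 2 of smallest p, the 8 genes most like Cxcl13 and 3 chromosome neighbours a side. Of 152 listed genes, those not measured under 1 symbol are not analysed here. Replicate numbers did not pair the arrays: same-numbered CBE and PBS arrays correlated at -0.19 to 0.20 in their deviations, over 0.1 in 2 of 12 pairs. Alternatives were median centring, quantile normalization, a dim filter, averaged probe sets, an ordinary linear model, a strain's own arrays, a replicate block and each array left out.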

Additional observations from a re-analysis of the deposited data

How the results depend on the processing

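Cxcl13 stayed higher with CBE in every strain under median centring, quantile normalization, a filter on dim probe sets, averaged probe sets, the replicate block and each array left out. Without single arrays its difference ran from 4.07 to 4.55 in FVB, 1.25 to 2.07 in SV129, 0.76 to 1.23 in C57 and 0.39 to 0.84 in C3H. Cxcr5 stayed above the threshold for adjusted p wherever it was tested; the filter on dim probe sets removed it, so that setting gave no value. Of 50 other named genes 42 kept their call for the mean of 4 strains under every alternative run and 8 did not, and none of the 8 changed sign. The replicate block, whose numbers did not pair the arrays, gave 148 genes changed in the mean of 4 strains (161 without it), moved Csf1r to an adjusted p of 0.11 and Icam1 to 0.040, and left Cxcl13 at 4.37 in FVB.

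Counts of changed genes moved more. Leaving out 1 array gave 132 to 244 for the mean of 4 strains, 7 to 219 for SV129 (25 with all), 25 to 85 for FVB (30), 30 to 136 for C57 (72), 3 to 52 for C3H (8) and 0 to 25 for differences between strains (2). In an ordinary linear model the counts were 7 in SV129, 36 in C57, 2 in C3H and 0 between strains. With a strain's own arrays they were 4 in SV129, 58 in FVB and 0 in C3H. Median centring gave 143 in SV129 and 6 between strains, the dim filter 48 in SV129 and 4 between strains, and quantile normalization 13 in C3H. The causes were not tested. No background signal was used here to set a detection limit, and all Cxcr5 arrays read below the median of all values.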
